A study of Caenorhabditis elegans with 2 samples.

Results

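The gene tts-1 makes a long non-coding RNA of Caenorhabditis elegans, and the chromatin at its 3′ end held 1 of the strongest binding sites of the zinc finger protein Y95B8A.8, also named zfr-1. The site was found by taking every peak inside tts-1 or within 5000 bp of it in each of the 8 deposited peak lists. tts-1 was 1 gene among 46890 annotated on the 6 nuclear chromosomes, and 1 of 7958 annotated as ncRNA or lincRNA. The gene was chosen by the signal of this peak in the list of both replicates, so its signal, rank and position are given as descriptions, with no test.

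Chromatin immunoprecipitation with sequencing was done on 1 group of whole young adults, taken at 63 hours and synchronised as starved larvae, in biological replicates 1 and 2. All animals were strain RW12277, in which a CRISPR insertion joins TY1, EGFP and 3xFLAG tags to Y95B8A.8 at its own locus, and the precipitation used an antibody against GFP. There was no second genotype or condition to compare with, only 1 edited strain was used, and an immunoprecipitation of untagged animals was not analysed here. The samples were whole animals, so strong binding in few cells and weaker binding in many cannot be told apart.

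tts-1 takes its name from telomere-like sequence in its transcript. Its RNA is known to be abundant in dauer larvae and in long-lived daf-2 and clk-1 mutants, to associate with ribosomes, and to be needed for the long life of those mutants. Y95B8A.8 is the worm relative of ZFR, a vertebrate zinc finger protein that binds double-stranded RNA.

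Per Ensembl, tts-1 (WBGene00006650, F09E10.11) lies on the minus strand of X from 1504131 to 1504841 on WBcel235, the same assembly as ce11, and is 711 bp long. RefSeq gives the same coordinates. Its spliced transcript has an exon 1 of 367 bp (1504475 to 1504841), an intron of 52 bp and an exon 2 of 292 bp (1504131 to 1504422), and a second transcript runs unspliced through all 711 bp. Because the gene is on the minus strand, its 3′ end has the lower coordinate.

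The sequence where the gene ends and the peak sits is shown because the strong peak has its summit in it in every list. It is X:1503895-1504194 on the minus strand, 5′ to 3′, from RefSeq's WBcel235 genome, with the bases of the annotated tts-1 transcript in capitals.

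3′ end of tts-1 and peak: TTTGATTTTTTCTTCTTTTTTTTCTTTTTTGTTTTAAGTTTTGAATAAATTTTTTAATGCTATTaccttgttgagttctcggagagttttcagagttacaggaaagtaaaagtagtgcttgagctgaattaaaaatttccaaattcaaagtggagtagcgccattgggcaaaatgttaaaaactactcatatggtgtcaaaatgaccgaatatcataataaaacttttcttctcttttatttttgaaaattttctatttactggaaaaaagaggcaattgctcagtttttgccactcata

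The last base of the annotated transcript is number 64 of this run. An AATAAA, the polyadenylation signal, begins at base 44, which is 20 bases before the annotated 3′ end. The run holds another AATAAA on the same strand beyond that end, at X:1503973-1503978. The summit called on both replicates is base 184, that of replicate 1 is base 197 and that of replicate 2 is base 155. All 3 lie in the lower-case part, beyond the annotated transcript.

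The stretch behind the gene's name lies in exon 1, X:1504692-1504751 on the minus strand, and is shown because the peak does not cover it. Capitals mark GCCTAA, the reverse complement of the telomere unit TTAGGC.

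Telomere-like stretch of tts-1: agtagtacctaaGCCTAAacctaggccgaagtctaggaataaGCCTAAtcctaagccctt

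Of the words searched in the 300 bp before the 5′ end, the binding element of the insulin-pathway factor DAF-16, TGTTTAC, was present. It stands in capitals within X:1504913-1504972, minus strand, 99 bp before the 5′ end and inside the neighbouring non-coding gene F09E10.14.

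Upstream of tts-1: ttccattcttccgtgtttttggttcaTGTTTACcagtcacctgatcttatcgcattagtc

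In the thresholded list of both replicates, the site was a single peak from 1503733 to 1504194 with a signal of 293. In replicate 1 it ran from 1503859 to 1504138 with a signal of 158, and in replicate 2 from 1503851 to 1504180 with a signal of 125. Signal is the authors' peak caller's value and is comparable only within a list, so each was set against the median of its own list. The peak had 3.72 times the median of 78.6 in the list of both replicates, 2.72 times the median of 58.3 in replicate 1 and 2.24 times the median of 55.9 in replicate 2. All 3 values are well above their list's median, and the one in replicate 2 is the lowest.

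By signal the peak ranked 20 of 1694 in the list of both replicates, the top 1.18%. It ranked 16 of 733 in replicate 1, the top 2.18%, and 37 of 667 in replicate 2, the top 5.55%. A shorter list of both replicates, named conservative by the authors, held the same peak at rank 20 of 1538. The score, which rises as the irreproducible discovery rate (IDR) falls and stops at 1000, was 1000 in all 8 lists. A score of 830 stands for an IDR of 0.01, the threshold of the thresholded lists. The 3 peaks just above it in the main ranking were 569 bp from fbxa-190, an F-box protein gene (X, signal 305), in the peroxidasin gene pxn-1 (V, 296), and 167 bp from drr-2, a dietary restriction response gene (III, 293). The 3 just below were 125 bp from rib-2, a heparan sulphate synthesis gene (III, 292), 244 bp from unc-85, a histone chaperone gene (II, 286), and 376 bp from the pseudogene WBGene00235385 (I, 279).

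**Figure D1:**
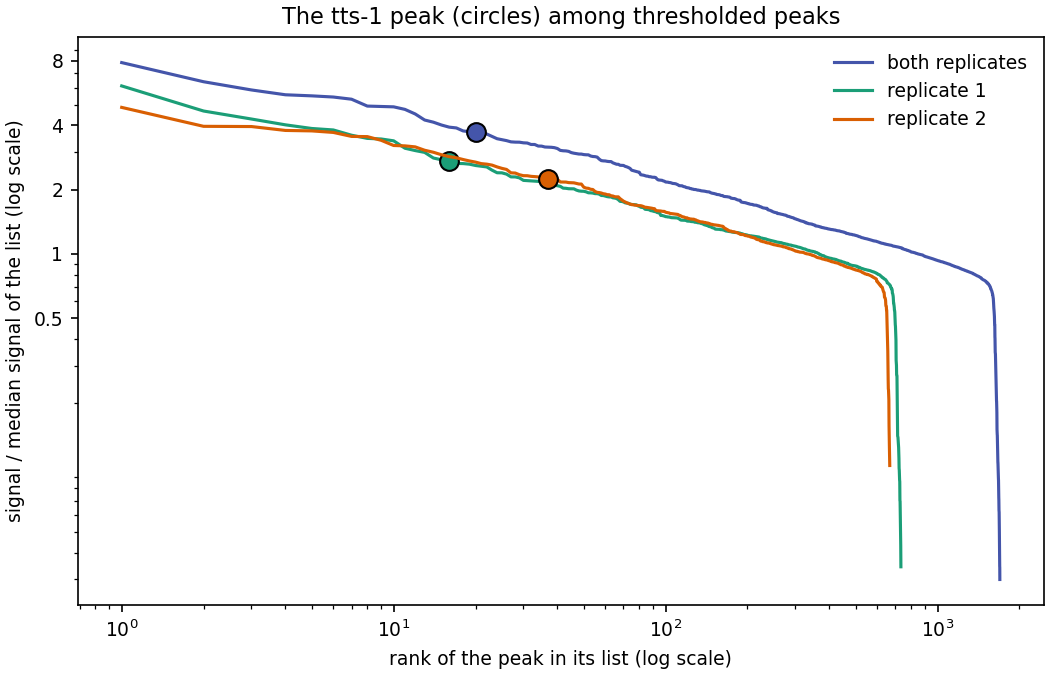
Signal of each peak divided by the median signal of its list (y, log scale) against its rank in that list (x, log scale), for the thresholded lists of both replicates, replicate 1 and replicate 2; circles mark the tts-1 peak. The circles stand at 3.72 times the median at rank 20, 2.72 times at rank 16 and 2.24 times at rank 37.

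These ranks are within the thresholded lists, which leave out some ranked peaks of high score. Among the ranked peaks left out, 7 had a higher signal than tts-1 in the list of both replicates, 6 in replicate 1 and 16 in replicate 2, and all of these had a score of at least 830. In the full ranked lists tts-1 stood at rank 27 of 95095 for both replicates, 22 of 46119 for replicate 1 and 53 of 44169 for replicate 2. The highest ranked signal for both replicates was 1947, on X, against 617 in the thresholded list. Why these peaks were left out is not described in the sources used here.

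On X, 158 of the 1694 thresholded peaks were found, and within that list the tts-1 peak was exceeded only by the site near fbxa-190. In the ranked lists it was rank 6 on X for both replicates, 4 for replicate 1 and 7 for replicate 2. That site had a signal of 305 in the list of both replicates, 129 in replicate 1 and 171 in replicate 2. The next one down in the thresholded list, from 2057847 to 2058136, had 229, 107 and 121. The order of this pair changed with the replicate: tts-1 was ahead in replicate 1 and the fbxa-190 site in replicate 2.

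A peak within 5000 bp is not rare among non-coding genes. In the list of both replicates, 1019 of the 7958 ncRNA and lincRNA genes had one, which is 12.8% (exact 95% interval 12.1 to 13.6, counting error only). The share was 5.77% in replicate 1, 5.09% in replicate 2 and 11.4% in the conservative list. On X it was 7.86%, 201 of 2558 genes. Over all genes except piRNA genes it was 17.6% in the list of both replicates, 8.68% in replicate 1, 8.0% in replicate 2 and 16.3% in the conservative list. The tts-1 locus had exactly 1 such peak in each of these 4 lists. Its peak also overlaps the gene itself, and 267 of the 7958 genes (3.36%) had such an overlap in the list of both replicates. That share was 1.36% in replicate 1, 1.22% in replicate 2 and 2.07% among the genes on X in the list of both replicates.

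The peak stood at the end of the gene. The summit called on both replicates, 1504011, was 120 bp beyond the annotated 3′ end and 830 bp from the 5′ end. The summit of replicate 1, 1503998, was 133 bp beyond the 3′ end, and that of replicate 2, 1504040, was 91 bp beyond it. No annotated gene was at any of these 3 positions. The peak reached into the last 64 bp of tts-1 in the list of both replicates, the last 8 bp in replicate 1 and the last 50 bp in replicate 2. All of that overlap is in exon 2.

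Each ranked list also gives the pair of calls whose ranks were compared. With these, 9 calls of this peak were available over the ranked lists of replicate 1, replicate 2 and both. All 9 calls come from the same replicates 1 and 2, so they are not independent. The summits of these calls took 8 distinct positions spread over 91 bp, from 66 to 157 bp beyond the 3′ end. None fell inside tts-1. The sample labels give fragments of 200 to 800 bp, longer than these offsets. The calls therefore do not resolve whether binding lay inside the gene's end or beyond it.

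The gene that faces tts-1 across the peak is F09E10.1, a protein-coding gene on the plus strand at 1502790 to 1503278. The 2 genes converge, with 852 bp between their 3′ ends, and the summit lies in that gap, 1221 bp from the 5′ end of F09E10.1, the nearest protein-coding 5′ end. Of all 1694 summits, 648 (38.3%) were at least as far from a protein-coding 5′ end, and the median distance was 753 bp. The next coding gene, F09E10.7, has its 5′ end 2159 bp from the summit. Summits in gaps between convergent genes numbered 123 of 1694, or 7.26%, while such gaps make up 4.74% of the genome. Gaps between divergent genes held 20.9% of summits and make up 12.2% of the genome. For gaps between genes on the same strand these were 26.2% and 19.8%. Each kind of gap was thus above its genome share. The summits in convergent gaps had a median signal of 80.0, and the fbxa-190 site alone among them was above tts-1.

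**Figure D2:**
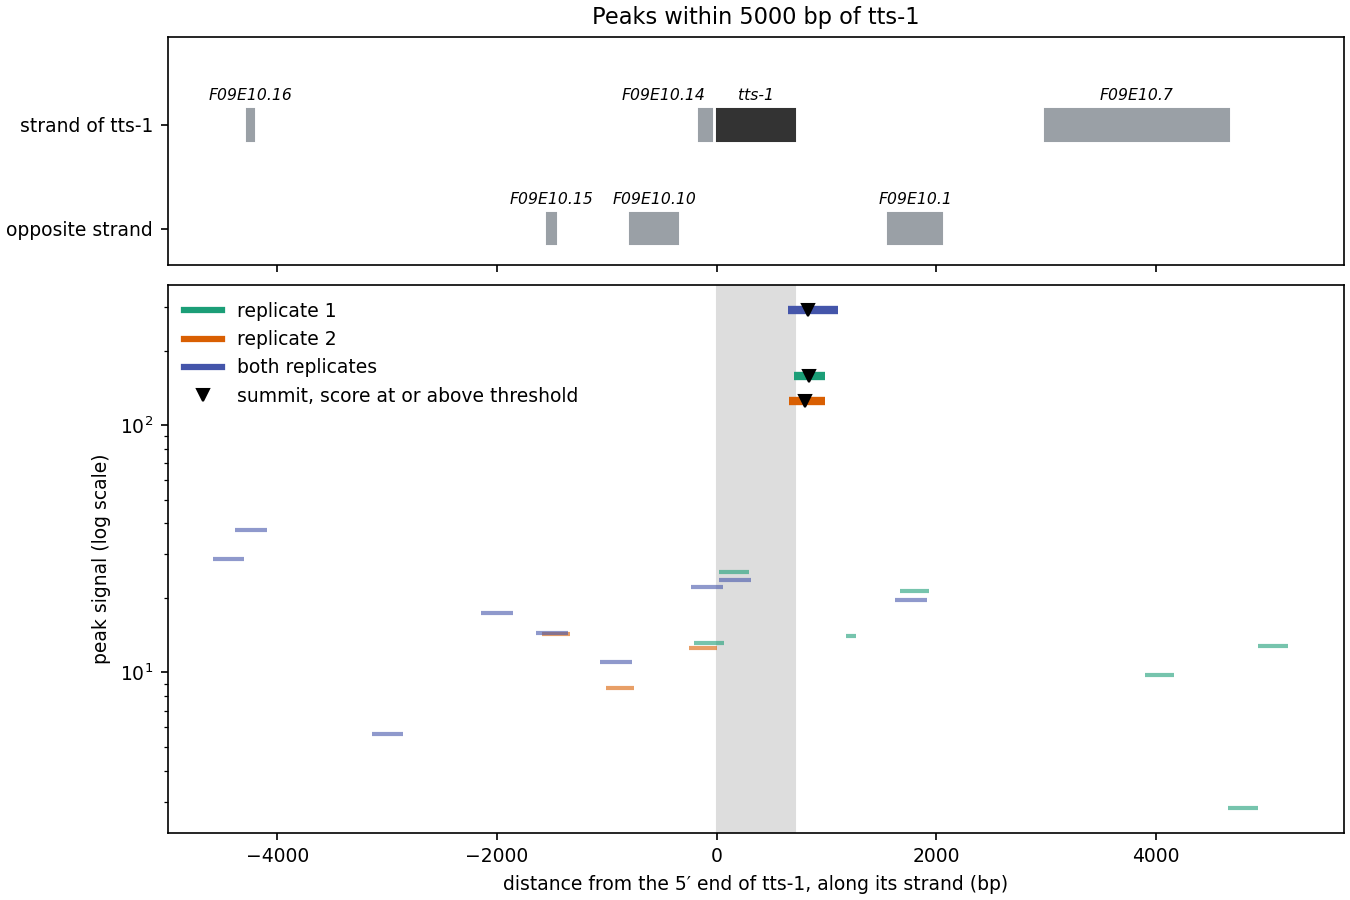
Genes (upper panel, by strand) and ranked peaks (lower panel) around tts-1; x is the distance in bp from the 5′ end of tts-1 along its strand, y is the peak signal on a log scale. Bars are peaks, the grey band is tts-1, and triangles mark summits of peaks at or above the score threshold. The 3 triangles sit at 830, 843 and 801 bp, beyond the 711 bp of the gene, and every other bar is below a signal of 38.

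Below the threshold, the ranked lists held weaker entries around tts-1. The locus had 8 ranked peaks in replicate 1, 4 in replicate 2, 10 in the list of both replicates, and 14 in a further ranked list in which the replicates were compared with each other. Such entries are common: 90.4% of ncRNA and lincRNA genes had a ranked peak within 5000 bp in the list of both replicates, with a median of 11 per gene, as had 93.0% of all genes except piRNA genes, and the ranked peaks of that list cover 26.5% of the genome. The share of non-coding genes was 89.6% in the ranked list of replicate 1, with a median of 5, and 91.8% in that of replicate 2, with a median of 4. Over all genes except piRNA genes it was 91.8% and 93.7%. Of all ranked peaks, 1.86% reached the score of 830 in the list of both replicates, 1.7% in replicate 1 and 1.63% in replicate 2.

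Inside exon 1, the list of both replicates had an entry from 1504529 to 1504818 with a signal of 23.6 and a score of 82, near the list's median signal of 19.9. Replicate 1 had an entry there with a signal of 25.5 and a score of 171. The ranked list of replicate 2 had no entry inside tts-1 other than the edge of the strong peak and a 2-bp overlap at the 5′ end. In the list comparing the replicates, the same entry was paired with a call at 1504492 to 1504747 with a signal of 7.91, and second calls in that list come from replicate 2 for 98.9% of the peaks that reached a score of 830. This weak entry contains the telomere-like stretch shown above.

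At the 5′ end and over F09E10.14, an entry from 1504782 to 1505071 had a signal of 22.1 and a score of 96 in the list of both replicates. The signal there was 13.2 in replicate 1 and 12.5 in replicate 2. It overlaps the stretch with the DAF-16 element. The strong peak exceeded it 13.2-fold in signal within the list of both replicates.

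The neighbours had no thresholded peak of their own. They are the coding genes F09E10.1 and F09E10.7 beyond the 3′ end, and the short non-coding genes F09E10.14, F09E10.10, F09E10.15 and F09E10.16 upstream, 42, 348, 1460 and 4208 bp from tts-1. F09E10.1 carried an entry with a signal of 19.6 in the list of both replicates and 21.4 in replicate 1. The highest of the weaker signals, 37.7, was at F09E10.16, from 1508936 to 1509225, with a score of 206. That score was 344 where the replicates were compared with each other, short of 830. At the edges of the 5000-bp window, the outermost entries inside in the ranked list of both replicates were 912 bp away on the 3′ side (signal 19.6) and 4301 bp away on the 5′ side (28.7). The first outside in that list were 11733 bp (28.6) and 6100 bp (22.8) away. On the 3′ side, replicate 1 had an entry 4223 bp away (12.8), and the list comparing the replicates had one 4180 bp away (20.9). That last list also had an entry 4669 bp away on the 5′ side (8.29). The first entries outside the window were all far below the score of 830 in the 4 ranked lists, the highest at 127.

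The replicates placed the peak 42 bp apart. The thresholded lists of the replicates gave 403 overlapping pairs, each replicate 1 peak with its closest replicate 2 peak, which used 392 distinct peaks of replicate 2. Over these pairs the median distance between summits was 17 bp, with quartiles of 7 and 42 bp, and 102 pairs (25.3%) were at least as far apart as tts-1. With 1 pair for each replicate 2 peak, the median was 16 bp, the upper quartile 37 bp, and 91 of 392 pairs were at least as far apart. On the scale of log2 signal over the list median, tts-1 had 1.44 in replicate 1 and 1.17 in replicate 2. The difference of 0.28 lay above the upper quartile of 0.21 over the 403 pairs, whose median difference was -0.02, and 86 of the 403 leaned further toward replicate 1. Over the 23 pairs on X the median difference was 0.115, also toward replicate 1. The tts-1 peak was thus high in both replicates and leaned toward replicate 1, a lean not particular to it.

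**Figure D3:**
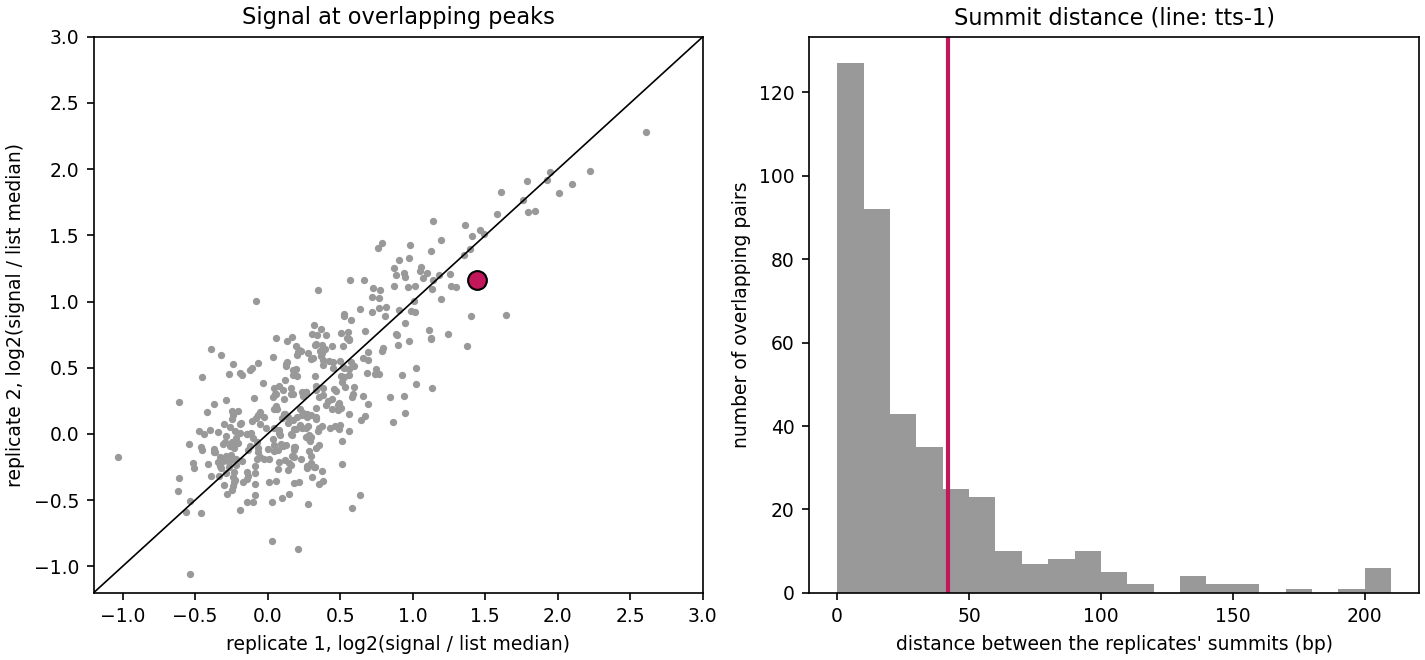
Left, log2 of signal over the list median in replicate 1 (x) and replicate 2 (y) at the 403 overlapping pairs, with the line of equality and tts-1 as a large circle; right, the number of pairs by distance between the replicates' summits in bp, with a line at tts-1. The circle is at 1.44 and 1.17, below the line of equality, and the summit distance of 42 bp is at the upper quartile. Pairs far below the list median in either replicate, down to -4.39 in replicate 1, fall outside the axes on the left.

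The pairs of compared calls differed between the replicates as well. In the ranked list of replicate 1 the pair had signals of 79.5 and 79.0. In that of replicate 2 it had 78.3 and 46.9, a ratio of 1.67, against a median ratio of 0.978 and quartiles of 0.797 and 1.25 over the 718 peaks that reached 830. In the ranked list of both replicates the pair had 168 and 120, a ratio of 1.41, against quartiles of 0.820 and 1.22 over 1767 peaks. The sources used here do not describe what separates the calls of a pair, and depth is unknown, so counting error could not be set beside these ratios.

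In the list of both replicates the peak was wide for its height. It measured 462 bp in that list, 280 bp in replicate 1 and 330 bp in replicate 2. The common width was 270 bp in replicate 1 (688 of 733 peaks) and 256 bp in replicate 2 (630 of 667). In replicate 1 the peak was thus close to the common width. The main list gives 290 bp to 1587 of its 1694 peaks. Of the others, 101 were narrower, with a median signal of 215 against 76.5 for peaks of the common width, and 6 entries at 4 regions were wider. Among the 20 highest peaks, 18 were narrower than 290 bp, 1 had that width and 1 was wider, which was tts-1. Their median width was 192 bp.

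The other wide regions had lower signals. They were at the non-coding gene C30E1.9 (X, 16931223 to 16931985, 763 bp, signals 155 and 109), at sip-1, a small heat shock protein gene (III, 10505925 to 10506486, 562 bp, signals 167 and 77.9), and at 7079498 to 7079863 on I (366 bp, 164). The regions at C30E1.9 and sip-1 are each listed with 2 summits, while the tts-1 region has 1. In replicate 2 the tts-1 peak was the widest of all 667, and in replicate 1 another peak, of 289 bp, was wider.

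**Figure D4:**
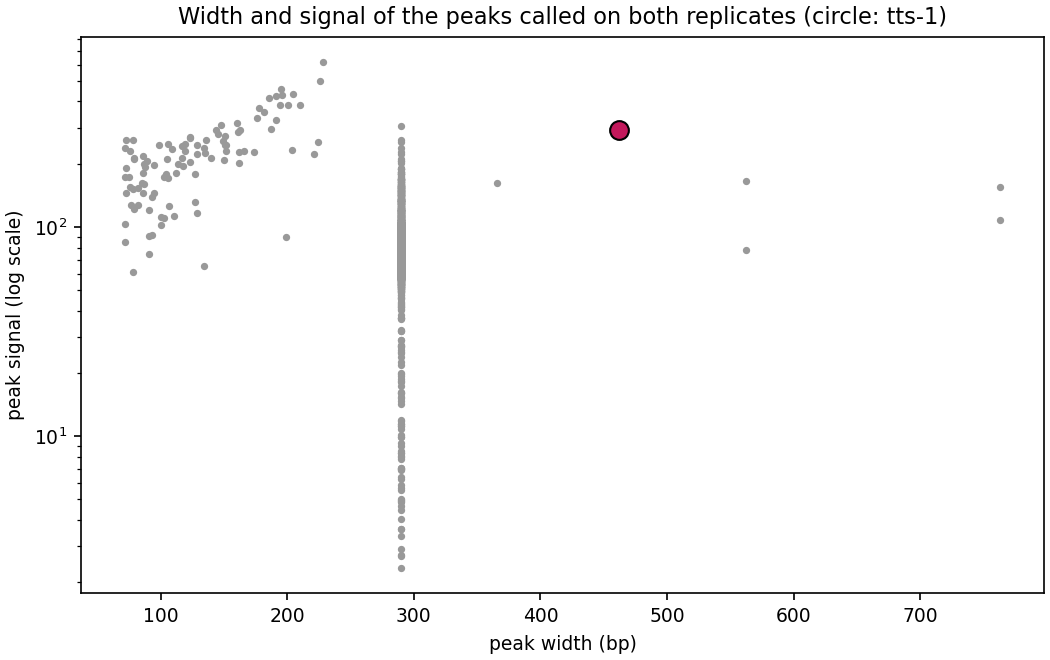
Peak width in bp (x) and peak signal (y, log scale) of the 1694 peaks in the list of both replicates; the large circle is tts-1. Most peaks stand in the column at 290 bp, the narrower peaks include most of the highest signals, and tts-1 stands apart to the right at 462 bp and a signal of 293.

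The bases under the peak were poor in G and C. A window of 290 bp centred on the summit had 30.0% GC, against a median of 40.7% (quartiles 35.9 and 45.9) for the same window at all 1694 summits, and 64 summits were at or below tts-1. The GC content was 27.1% over the whole peak and 35.2% over X. Lower-case repeat masking in the RefSeq genome covered 80.0% of the window, against a median of 25.0%, and 51 summits had at least as much. Of the 427 words of 36 bases in the peak, 407 occurred once in the genome and 20 occurred more than once. The sources used here do not state how reads matching several places were treated, and the part of base composition and repeats in the signal was not tested.

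The searched words were counted in the peak, on both strands. In its 462 bp the telomere unit TTAGGC had no match, and 11.0% of windows of that length at all 1694 summits held it. The DAF-16 element TGTTTAC had none (6.67% of windows), nor did CTTATCA, an element associated with DAF-16 targets (7.32%). The GATA factor site TGATAA (31.9%) and the E box CACGTG (11.2%) had none either. TTTCAG, the splice acceptor consensus, had 1 match, and 53.4% of windows had at least 1. AATAAA, added after the sequence had been read, had 4 matches, 3 of them on the strand of tts-1. At least 1 was in 70.1% of windows and 2 or more in 41.1%. The windows were not matched to the low GC content at tts-1. No match says only that these letters are absent from the window.

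The gene itself held 2 copies of the telomere unit, 102 and 132 bp from its 5′ end, both as GCCTAA in the transcript. Among windows of 711 bp centred on the 1631 ncRNA and lincRNA genes of at least 200 bp, 15.3% had at least 1 copy and 3.07% had at least 2. The gene tts-2 (II, 1106 bp), named for the same kind of sequence, had 4 copies and no thresholded peak. A TTTCAG begins 413 bp from the 5′ end of tts-1 and ends at the last base of the intron. TGTTTAC, found once before the 5′ end, occurred in 4.94% of 21604 upstream windows of 300 bp.

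For other non-coding genes of at least 200 bp, peaks were at either end. Of the 1631 genes, 51 (3.13%) had a summit of the main list within 250 bp of the 5′ end and 51 had one within 250 bp of the 3′ end. The counts share 35 genes, and 16 genes, tts-1 included, had a summit at the 3′ end only. Leaving out summits that a coding gene's 5′ end lay within 1000 bp of, 23 genes had a summit at the 5′ end, 20 at the 3′ end, 14 at both and 6 at the 3′ end only.

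The 5 non-coding genes most like tts-1 were sought by Euclidean distance over log2 of signal against the median of peaks scoring 830 or more, in the ranked lists of replicate 1, replicate 2 and both. A gene took the highest peak whose summit was inside it or within 1000 bp, and 823 of the 1631 genes had one in all 3 lists. The nearest was Y41E3.460 (IV, distance 0.56), with a signal of 115 in replicate 1, 150 in replicate 2 and 260 in both. Next came rpr-1, the RNA of RNase P (I, 0.65), with 106, 134 and 240, and F26E4.16 (I, 0.69), with 127, 91.8 and 218. M04F3.7, a lincRNA gene (I, 0.78), had 177, 198 and 383, and Y37E3.29 (I, 1.04) had 101, 87.5 and 190. Like tts-1, F26E4.16 and Y37E3.29 were higher in replicate 1 than in replicate 2, while the other 3 were higher in replicate 2. rpr-1, F26E4.16 and Y37E3.29 overlap the coding genes ints-8, cox-5B and pcyt-2.1, whereas no coding gene overlaps tts-1. Among the 823 genes, 3 exceeded tts-1 in the list of both replicates, 3 in replicate 1 and 5 in replicate 2. These are counts of genes, not of sites: a pair of overlapping genes on IV, on opposite strands, took the same peak and is in each count.

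Of 7 named non-coding RNA genes, tts-1 included, 4 had a peak inside or within 1000 bp in the list of both replicates, where 5.87% of all ncRNA and lincRNA genes did. tts-1 was chosen for its peak in this list, so its place in the count was fixed in advance. Besides tts-1, these were rpr-1 with a signal of 240, rncs-1, an inhibitor of Dicer (X), with 95.9, and mrpr-1, the RNA of RNase MRP (II), with 78.6. Their summits lay in different places: 10 bp from the 5′ end of rpr-1, inside mrpr-1 125 bp from its 5′ end, and 281 bp beyond the 3′ end of rncs-1. The summit in mrpr-1 was also 191 bp from the 5′ end of the coding gene pcrg-1. For rpr-1 and rncs-1 the nearest coding 5′ end was 6406 and 4928 bp from the summit. rpr-1 had a thresholded peak in each replicate, rncs-1 in replicate 2 and mrpr-1 in replicate 1. With tts-1, each replicate had 3 of 7, against 2.43% of ncRNA and lincRNA genes in replicate 1 and 2.26% in replicate 2. Because they include tts-1, these counts are not a test against the shares beside them. lep-5, which acts in developmental timing, the Y RNA gene yrn-1 and tts-2 had no thresholded peak.

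Because tts-1 is known from long-lived mutants, peaks were also counted at 29 genes of insulin signalling and lifespan. Insulin signalling through the receptor DAF-2 and the kinase AKT-1 keeps the transcription factor DAF-16 out of the nucleus, and reduced function of the receptor lengthens life. In the list of both replicates 5 of the 29 had a peak inside or within 1000 bp of the 5′ end, where 8.64% of all protein-coding genes did. They were akt-1 (V, signal 90.6), rsks-1, the S6 kinase (III, 80.1), daf-16 (68.5), daf-2 (III, 68.3) and aak-2, a subunit of AMP-activated kinase (X, 53.4). The tts-1 signal exceeded them 3.23-fold to 5.48-fold.

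None of these 5 summits was close to the annotated 5′ end of its gene. In aak-2 the summit was 906 bp, and in daf-2 19345 bp, downstream of that end. The summit of akt-1 was 1 bp before its 3′ end, that of daf-16 was 175 bp before its 3′ end, and that of rsks-1 was 442 bp before its 3′ end and 552 bp from the 5′ end of Y47D3A.32. daf-2 and daf-16 are 46333 and 26206 bp long, and the rule counts a peak anywhere inside a gene. The replicates gave less: akt-1 passed in replicate 2 only and rsks-1 in replicate 1 only, so each replicate had 1 of 29, against 4.04% of all protein-coding genes in replicate 1 and 3.93% in replicate 2. Neither count stands apart from that background, and daf-16, daf-2 and aak-2 passed in neither. clk-1, age-1, daf-18, sod-3 and the other 20 listed genes had no thresholded peak in the list of both replicates.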

How the data were processed

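Only peak lists were analysed. The authors deposited, per the file headers, lists on ce11 in which each peak has a position, a signal from their peak caller and a score that follows from the IDR. The ranked lists deposited by the authors add the −log10 of the IDR and the calls compared. The sources used here name neither the aligner nor the caller. Depth is unknown, so signals carry no interval. All peaks of the thresholded lists recurred in the matching ranked lists, with scores from 830. Starts were converted to 1-based positions, and the summit is the start plus the deposited offset. Peaks were placed on Ensembl release 115 (WBcel235), with symbols from RefSeq for 44750 of 46890 genes; peak ends lay within the chromosome lengths. An overlap needed 1 bp. Named genes were tts-1, those in its 5000-bp window, the 5 nearest in signal, listed genes with a peak, and the 3 peaks above and below. The locus, lists and words were chosen with earlier results of these data known. Overlap counting was tested on simulated intervals. The work used scipy 1.17.1, pandas 2.3.3, numpy 2.4.6 and matplotlib 3.10.9 under Python 3.11.15. The alternatives were each replicate's own list, the conservative and ranked lists, other windows and RefSeq's gene start.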

Additional observations from a re-analysis of the deposited data

How the results depend on the processing

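Across 39 alternatives of 10 results, 25 stayed within the spread or margin and 14 moved. For rank share, signal over the median, width and summit position, the spread was the standard deviation of the values of replicates 1 and 2. Those values were themselves alternatives. The conservative and ranked lists of both replicates hold the identical peak, and RefSeq gives the same coordinates, so its width and summit could not move there. The 25 therefore do not measure how stable the results are. The number of peaks at tts-1 was 1 in each alternative except the ranked list, where it was 10. Taking the list of 1 replicate alone, the rank share ranged from 2.18% to 5.55%, signal over the median from 2.24 to 2.72, the width from 280 to 330 bp, and the share of non-coding genes with a peak nearby from 5.09% to 5.77%. Replicate 2 alone gave the 5.55% and the 2.24. In the ranked list the signal was 14.7 times the median, since most ranked peaks are weak. The share of non-coding genes was 5.87% with 1000 bp, 3.36% for peaks inside the gene and 11.4% in the conservative list. The lifespan list, in alternatives chosen after seeing the data, had 1 gene with a peak in each replicate alone. The summit stayed 801 to 843 bp from the 5′ end. No paired analysis was possible because there was only 1 group. Unknown depth and n = 2 limit all values.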
